A study of Mus musculus with 8 samples.

Results

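The 36 genes described here encode proteins that carry a cell through mitosis, among them Mki67, Top2a, the mitotic cyclins, Cdk1, Aurora and Polo kinases, kinetochore proteins and spindle kinesins. They were taken by gene symbol from the deposited table of log2 signals, and all 36 were found among its 24213 genes. Of these symbols 35 had 1 feature (the probes summarised as 1 value), and Ccnb1 had 3, of which the brightest on average was kept.

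Mitosis genes are transcribed in a wave late in the cell cycle. Their promoters are held silent in resting cells by the DREAM complex and are switched on by B-Myb and FoxM1 as cells pass through G2, so their transcripts are widely read as a sign of how many cells in a sample are dividing. Hematopoietic stem cells (HSCs), the source of every blood lineage, are known for spending most of their time out of cycle, whereas the progenitors they produce divide often.

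Bone marrow cells of C57BL/6 mice of 2 genotypes were profiled, and the comparison asks how loss of an autophagy gene alters HSC transcripts. The 4 conditional knockout (cKO) mice were Atg12flox/flox:Mx1-Cre and the 4 control mice were Atg12flox/flox without Cre. Atg12 encodes a ubiquitin-like protein needed to form autophagosomes. Mx1-Cre is a recombinase gene driven by an interferon-responsive promoter that is active in many cell types, so deletion was not limited to HSCs. All 8 mice, controls included, were injected with poly(I:C), an RNA mimic of viral infection that triggers interferon, at 4 weeks of age. Each mouse gave its own cells 2 to 3 months later, at a labelled age of 3 to 4 months, and sorted in 2 rounds as Lin-, c-Kit+, Sca-1+, Flk2-, CD150+ and CD48-. Since the controls lacked Cre, its effect and the loss of Atg12 cannot be told apart.

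Each array gave log2 signals from RMA, a method that equalises the signal distribution between arrays. Any pair of arrays correlated at 0.986 to 0.993 over genes. Atg12 averaged 5.50 ± 0.13 in cKO and 6.44 ± 0.08 in controls (SD, n = 4 arrays each; log2 difference -0.93, limma adjusted p = 0.031). Its two-sided exact permutation p was 0.0286, the lowest possible with 4 arrays in each group. The call was lost when any 1 of the 8 arrays was left out (limma adjusted p 0.0542 to 0.226). cKO 3 lay apart on the first principal component, at -39.5, where the other arrays lay between -12.2 (control 1) and 14.8 (cKO 2). cKO 1, cKO 2 and control 4 read Xist without Y-linked genes, and cKO 3 and controls 1, 2 and 3 read Y-linked genes without Xist. cKO 4 read both (Xist 8.12, Y-linked mean 5.83), although the labels describe individual mice. On the other arrays these transcripts read 1.64 to 3.20, which is used below as the level of absent transcripts. Slamf1, which encodes CD150, was within that level on all 8 arrays (2.73 to 2.98 in cKO and 2.22 to 2.88 in controls). Cd48, whose product the sort excluded, read 8.53 to 8.66 in cKO and 8.58 to 8.69 in controls. Flt3, which encodes the likewise excluded Flk2, read 5.12 to 5.43 in cKO and 4.78 to 5.61 in controls. Kit and Ly6a (Sca-1), sorted for, were above the absent level on all 8 arrays. Of 14 HSC genes 9 had a mean above the absent level, against 10 of 10 genes of early myeloid progenitors. The RNA thus went against the sort for CD150, CD48 and Flk2, but the sort went by protein. Each gene was read from its feature of highest mean, the arrays did not measure protein, and the cause was not tested. The samples are called sorted samples below.

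All 36 mitosis genes were above the level of absent transcripts on every array, with log2 signals between 5.52 (Nek2, control 1) and 9.50 (Top2a, cKO 4). None of them passed the test between Atg12 cKO and control samples. At a limma adjusted p under 0.05, 0 of 36 were higher and 0 of 36 were lower in cKO, where 0.00413% of all 24213 genes were called, namely Atg12 alone. At an unadjusted limma p under 0.05 the count was also 0 of 36, against 4.94% of all genes. The adjusted p was 0.9996 for each of the 36 genes.

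**Figure D1:**
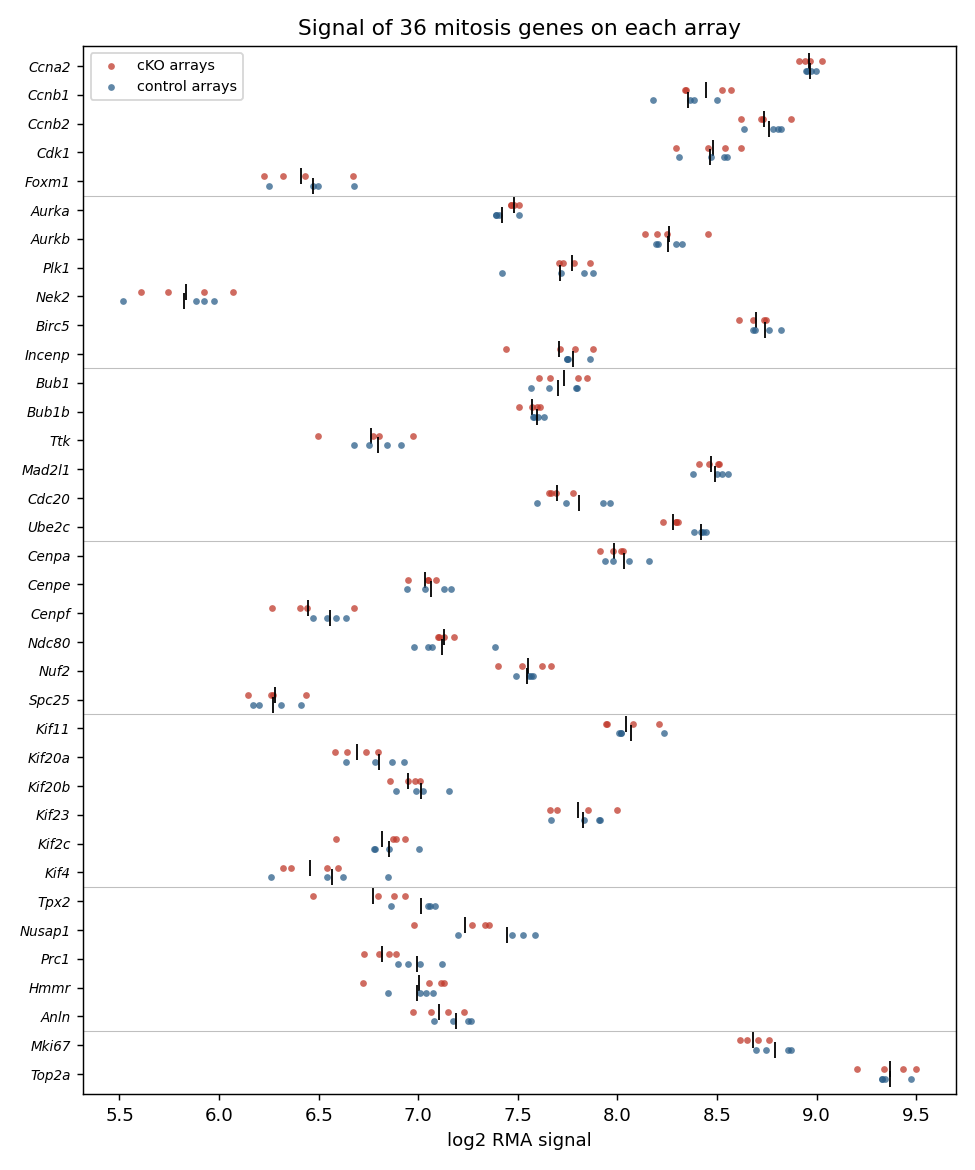
Log2 RMA signal (horizontal axis) of each of the 36 mitosis genes (rows, grouped by role between grey lines) on the 4 cKO arrays (red, upper row of points) and the 4 control arrays (blue, lower row), with the group mean as a black tick. The points of both groups overlap for every gene except Ube2c and Prc1, where all cKO arrays lie lower.

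The differences were small as well as uncalled. Log2 differences of cKO minus control ran between -0.24 (Tpx2) and 0.09 (Ccnb1), with a median of -0.03 over the 36 genes, 0.002 over all genes and -0.01 over the 12107 genes at or above the median signal. Of the 36 genes 25 (69.4%) lay below 0, as did 49.4% of all genes and 54.7% of genes at or above the median signal. The 95% interval of the difference, from the limma fit and not adjusted for the number of genes, stayed inside 0.5 log2 units on either side of 0 for 36 of 36 genes, against 81.2% of all genes. Its lowest bound was -0.50 for Tpx2 and its highest was 0.32 for Ccnb1. The median SD within groups was 0.11 for the 36 genes and 0.15 for genes at or above the median signal. No decrease was called. In whole sorted samples a change in the number of dividing cells and a change in RNA per dividing cell could not be told apart.

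**Figure D2:**
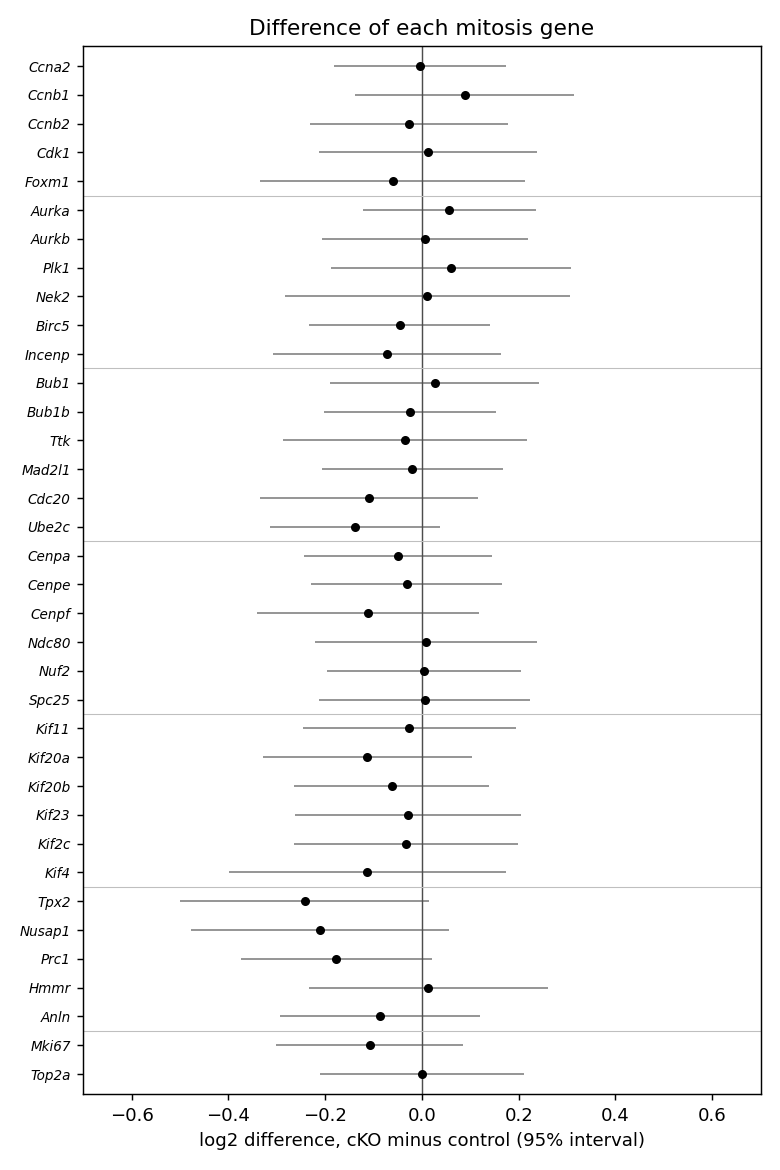
Log2 difference of cKO minus control (horizontal axis) for each mitosis gene (rows, in the same order by role), with its 95% limma interval as a grey bar. Every bar crosses 0, and the points run between -0.24 for Tpx2 and 0.09 for Ccnb1.

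Promoters of mitosis genes are known for a short element near the start of transcription, the cell cycle homology region (CHR), which DREAM and B-Myb complexes bind, and for upstream CCAAT boxes bound by NF-Y. The RefSeq promoter table (GRCm38.p6, 250 bases before to 50 after a gene's start) held 31 promoters for 30 of the 36 genes. The letters TTTGAA or TTCGAA (CHR, either strand) were in 24 of these 31 promoters (77.4%), against 19.2% of all 32851 promoters of the same length. CCAAT on either strand was in 23 of 31 (74.2%), against 37.4%. Both were in 20 of 31 (64.5%), against 7.52%, and a pair of CCAAT boxes 30 to 35 bases apart was in 8 of 31 (25.8%), against 1.64%. The windows of 5 genes, 120 bases before to 30 after the start, are shown for the shared layout (Ccnb2, Cdk1), for the pair of genes whose groups did not overlap (Prc1, Ube2c), and for a gene with one of the lowest p-values and no match (Nusap1). They are written 5′ to 3′ on the gene's strand, with CHR and CCAAT matches on either strand in capitals.
Ccnb2 (chr9:70421525-70421674, minus strand): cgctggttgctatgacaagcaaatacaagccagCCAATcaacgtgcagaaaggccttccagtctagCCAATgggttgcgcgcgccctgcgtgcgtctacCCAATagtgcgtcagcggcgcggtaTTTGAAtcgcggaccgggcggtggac
Cdk1 (chr10:69352883-69353032, minus strand): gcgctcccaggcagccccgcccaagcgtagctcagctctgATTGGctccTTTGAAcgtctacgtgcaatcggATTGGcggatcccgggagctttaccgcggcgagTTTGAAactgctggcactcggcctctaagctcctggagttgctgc
Prc1 (chr7:80294331-80294480, plus strand): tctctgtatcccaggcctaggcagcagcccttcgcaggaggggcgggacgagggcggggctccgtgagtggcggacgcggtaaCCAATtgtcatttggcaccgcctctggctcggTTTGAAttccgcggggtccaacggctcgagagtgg
Ube2c (chr2:164769809-164769958, plus strand): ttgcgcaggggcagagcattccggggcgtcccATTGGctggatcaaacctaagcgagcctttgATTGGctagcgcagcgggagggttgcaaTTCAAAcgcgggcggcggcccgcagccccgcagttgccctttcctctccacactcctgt
Nusap1 (chr2:119618178-119618327, plus strand): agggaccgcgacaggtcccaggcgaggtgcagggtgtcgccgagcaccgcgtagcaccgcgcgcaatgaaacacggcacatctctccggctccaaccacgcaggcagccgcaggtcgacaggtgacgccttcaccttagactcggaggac

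In Ccnb2 the CCAAT boxes began 87, 54 and 21 bases before the start, and the CHR match at base 5 of the transcript. In Cdk1 the boxes began 80 and 48 bases before the start and the nearer CHR match 15 bases before it. Of the 31 promoters 22 had a CHR match beginning between 60 bases before and 50 after the start. The 23 genes with a CHR match had a median log2 difference of -0.03, and the 7 with a promoter and no match one of -0.02. A match of letters is a description of the sequence and does not show that a factor binds there.

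The cyclins, Cdk1 and Foxm1 had a median difference of -0.003 over 5 genes, with 3 below 0. Ccnb1, encoding cyclin B1, which activates Cdk1 for entry into mitosis, read 8.53, 8.34, 8.57 and 8.34 on the cKO arrays and 8.18, 8.36, 8.50 and 8.38 on the control arrays. The groups overlapped, with control 1 the lowest array, and the log2 difference was 0.09 (SE 0.10; limma adjusted p = 0.9996). The other features named Ccnb1 gave differences of 0.06 and 0.07. Cdk1, the kinase that drives mitosis, read 8.46, 8.62, 8.29 and 8.54 in cKO and 8.31, 8.53, 8.47 and 8.55 in controls. The groups overlapped, with cKO 2 the highest and cKO 3 the lowest array, and the difference was 0.01 (95% interval -0.21 to 0.24). Foxm1, the transcription factor that activates many of these genes, read 6.67, 6.32, 6.23 and 6.43 in cKO and 6.25, 6.47, 6.50 and 6.68 in controls. Its highest arrays were cKO 1 and control 4, its lowest cKO 3 and control 1, and the difference was -0.06 (SE 0.12). Ccna2 (cyclin A2) averaged 8.96 in both groups, with all 8 arrays within 0.12 log2 units, the narrowest range of the 36 genes, and Ccnb2 (cyclin B2) differed by -0.03.

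Mitotic kinases and the chromosomal passenger complex also sat near 0, with a median difference of 0.009 over 6 genes. Aurka, the kinase of the centrosome and spindle poles, averaged 7.48 ± 0.02 in cKO and 7.42 ± 0.06 in controls (SD, n = 4 each), and 4 of 4 cKO arrays lay above the control mean. Its groups overlapped through control 2, at 7.51. Aurkb, the catalytic kinase of the passenger complex, differed by 0.006, and its partners Birc5 (survivin) and Incenp (the scaffold) by -0.05 and -0.07. Incenp was low on cKO 3 alone, at 7.44, where the other 7 arrays read 7.71 to 7.88. Plk1, the Polo kinase of mitotic entry and exit, differed by 0.06, and its lowest array was control 1, at 7.42 against 7.71 to 7.87 on the others. Nek2, a kinase that separates centrosomes, ranged most widely of this group, between 5.52 (control 1) and 6.07 (cKO 2), and differed by 0.01.

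The spindle checkpoint holds anaphase until chromosomes are attached, and the anaphase-promoting complex (APC/C) then ends mitosis by tagging cyclin B and securin for destruction. The checkpoint kinase genes Bub1 and Ttk differed by 0.03 and -0.04, Bub1b (BubR1) by -0.03 and Mad2l1 (Mad2) by -0.02. Cdc20, the activator of the APC/C, read 7.69, 7.66, 7.78 and 7.66 in cKO and 7.74, 7.96, 7.93 and 7.60 in controls. Controls 2 and 3 were high and control 4 was the lowest of all arrays, so the groups overlapped; the difference was -0.11 (SE 0.10; limma adjusted p = 0.9996).

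Ube2c, the ubiquitin-conjugating enzyme that works with the APC/C, was 1 of the 2 mitosis genes whose groups did not overlap. It read 8.29, 8.30, 8.23 and 8.30 on the cKO arrays and 8.44, 8.43, 8.42 and 8.38 on the control arrays. Every cKO array lay below every control array. The log2 difference was -0.14 (SE 0.08, 95% interval -0.31 to 0.04, limma adjusted p = 0.9996). The other gene was Prc1, which bundles the microtubules of the central spindle. Prc1 read 6.85, 6.73, 6.80 and 6.89 in cKO and 6.95, 7.01, 6.90 and 7.12 in controls, with cKO 4 just below control 3. Its log2 difference was -0.18 (SE 0.09, 95% interval -0.37 to 0.02, limma adjusted p = 0.9996). Groups without overlap correspond to a two-sided exact permutation p of 0.0286, and 703 of all genes, or 2.9%, had them (373, or 1.54%, with cKO lower). The 2 of 36 mitosis genes are to be read against that share.

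Genes of the centromere and kinetochore, the structures by which chromosomes hold on to the spindle, had a median difference of -0.01 over 6 genes. Cenpa, the histone H3 variant that marks the centromere, differed by -0.05, with 4 of 4 cKO arrays below the control mean. Cenpf, a large outer kinetochore protein, read 6.68, 6.44, 6.27 and 6.41 in cKO and 6.47, 6.64, 6.59 and 6.54 in controls. cKO 1 was the highest of all 8 arrays and cKO 3 the lowest, and the difference was -0.11 (SE 0.10). Cenpe, a kinetochore motor, differed by -0.03. Ndc80, Nuf2 and Spc25, subunits of the Ndc80 complex that grips microtubules, differed by 0.008, 0.004 and 0.005.

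All 6 kinesin genes had differences below 0, between -0.11 and -0.03, and none was called. Kif11 (Eg5), which pushes spindle poles apart, differed by -0.03, Kif23 (MKLP1), a cytokinesis motor, by -0.03, and Kif2c (MCAK), which takes microtubules apart, by -0.03. Kif20a (MKLP2), a motor of the central spindle, read 6.58, 6.80, 6.74 and 6.64 in cKO and 6.64, 6.87, 6.93 and 6.78 in controls. The groups overlapped, although 4 of 4 cKO arrays lay below the control mean, and the difference was -0.11 (SE 0.10). Kif20b differed by -0.06. Kif4, a chromosome-bound kinesin, is the only one of the 36 genes on the X chromosome, and its difference was -0.11 (SE 0.13). Among arrays with Xist alone it averaged 6.57 on 2 cKO arrays and read 6.62 on 1 control array, and among arrays with Y-linked signal alone it read 6.32 on 1 cKO array and averaged 6.55 on 3 control arrays.

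The differences farthest below 0 were those of microtubule-associated proteins. Tpx2, which activates Aurora A on the spindle, read 6.88, 6.94, 6.47 and 6.80 in cKO and 6.86, 7.06, 7.08 and 7.05 in controls. cKO 3 was far below the rest, and control 1 lay below cKO 1 and cKO 2. Tpx2 had the smallest p of the 36 genes (log2 difference -0.24, SE 0.12, unadjusted p = 0.062, limma adjusted p = 0.9996), and its difference was -0.14 without cKO 3. Nusap1, which binds microtubules near chromosomes, read 7.34, 7.27, 6.98 and 7.36 in cKO and 7.20, 7.53, 7.47 and 7.59 in controls. Again cKO 3 was the lowest array and control 1 the lowest control, and the difference of -0.21 (SE 0.12) was -0.12 without cKO 3. Without control 1 the differences of Tpx2 and Nusap1 lay farther below 0, since it was the lowest control for both genes. Hmmr (RHAMM), a spindle protein, differed by 0.01, and Anln (anillin), which organises the cleavage furrow, by -0.09.

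Mki67 and Top2a are common markers of dividing cells. Mki67, which coats mitotic chromosomes, read 8.76, 8.65, 8.62 and 8.70 in cKO and 8.74, 8.69, 8.86 and 8.87 in controls. Controls 3 and 4 were the highest arrays, cKO 1 lay above controls 1 and 2, and the difference was -0.11 (SE 0.09). Top2a, the topoisomerase that untangles sister chromosomes, read 9.43, 9.34, 9.20 and 9.50 in cKO and 9.33, 9.33, 9.34 and 9.47 in controls. The cKO arrays lay on both sides of the controls, and both groups averaged 9.37, with a 95% interval of the difference between -0.21 and 0.21.

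The mean of the mitosis genes was 7.60, 7.55, 7.45 and 7.56 on the cKO arrays and 7.48, 7.61, 7.62 and 7.63 on the control arrays. cKO 3 and control 1 were low, the other 6 arrays lay between 7.55 and 7.63, and the groups overlapped. The difference between group means was -0.05 (SE 0.05). cKO 3 was the lowest of all 8 arrays for 19 of the 36 genes (52.8%), control 1 for 8 (22.2%), and control 4 was the highest for 12 (33.3%). Among the 12107 genes at or above the median signal, cKO 3 was the lowest array for 31.0% and control 1 for 16.0%, and control 4 the highest for 15.7%. The mean of those 12107 genes was likewise lowest on cKO 3 (6.11) and control 1 (6.14) and highest on control 4 (6.21). The 2 arrays with the lowest values on the first principal component were the same, cKO 3 and control 1. The part of these arrays in the mitosis result was not tested.

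**Figure D3:**
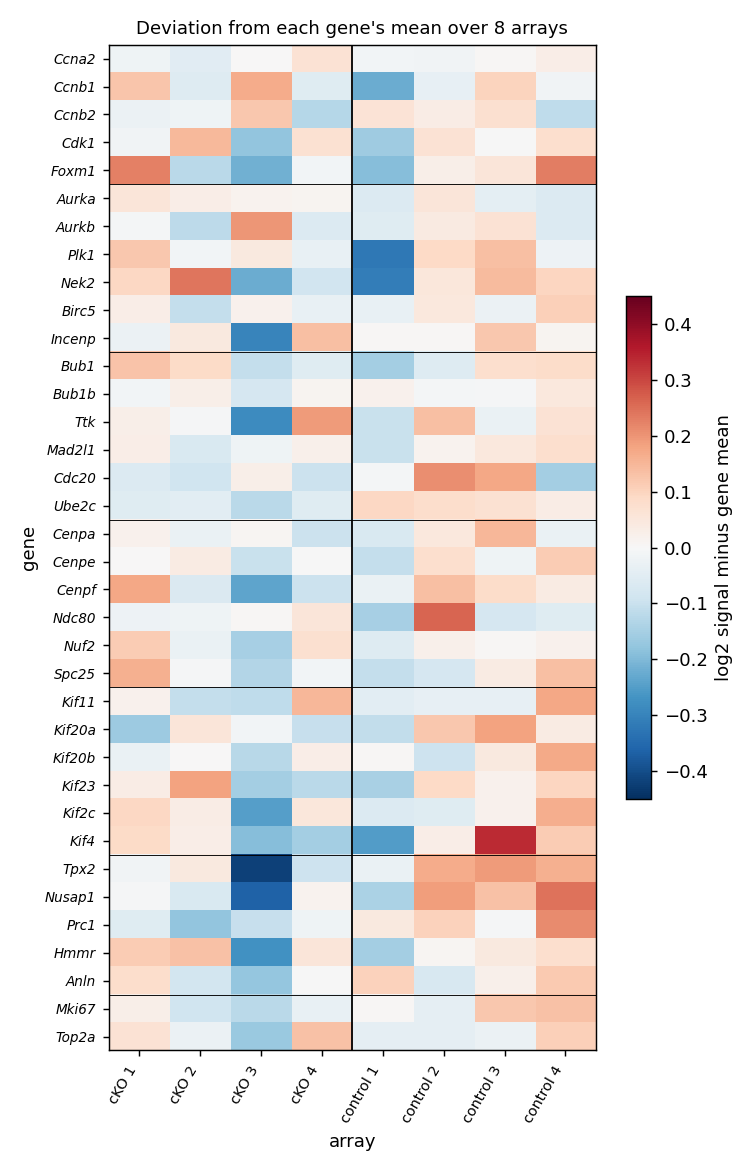
Deviation of each mitosis gene (rows) on each array (columns, cKO left of control) from that gene's mean over the 8 arrays, in log2 units (red higher, blue lower). The column of cKO 3 is mostly blue, being the lowest array for 19 genes, and that of control 4 mostly red, being the highest for 12.

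The size of the mean difference depended on single arrays. Without control 1 the mean difference of the 36 genes was -0.08 and 34 of 36 lay below 0; without cKO 3 it was -0.02 and 19 of 36 lay below 0; without control 4 it was -0.03 with 20 below 0. Without cKO 3 and cKO 4 together it was -0.009, with 21 below 0. No mitosis gene was called in any of these fits. Atg12, the deleted gene, was not called in them either, so they cannot show whether the call depends on single arrays. The group means differed by -0.05 among arrays with Xist alone (2 cKO, 1 control) and by -0.12 among arrays with Y-linked signal alone (1 cKO, 3 control). The second value rests on cKO 3 as its only cKO array.

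Genes of the same pathway outside the 36 were not called either. Of 184 further genes measured, 0 were called in either direction (limma adjusted p under 0.05), against 0.00413% of all genes. An unadjusted limma p under 0.05 was reached by 7 of the 184, against 4.94% of all genes. The 184 had a median difference of -0.04, and 126 (68.5%) lay below 0. The shares below 0 were 49.4% of all genes and 54.7% of genes at or above the median signal. The counts by list below are to be read against those shares. Of 34 other kinetochore and centromere genes, 26 lay below 0, and Cenpt, a protein that links the kinetochore to centromeric chromatin, had the smallest p (-0.25, SE 0.09), followed by Ska3 (-0.23). Of 28 other spindle, centrosome and cytokinesis genes, 21 lay below 0, with Aspm, a spindle pole protein, at -0.23 and Depdc1b at -0.26. Among 17 other regulators of mitotic entry, 14 lay below 0. Pkmyt1, the kinase Myt1 that restrains Cdk1, read 6.43, 6.49, 6.42 and 6.39 in cKO and 6.82, 6.63, 6.67 and 6.60 in controls, without overlap (-0.25, SE 0.09, limma adjusted p = 0.991). Cdca3 was at -0.12. Groups did not overlap for Cenpt, Aspm and Cdca3 either, nor for Pttg1, Mcm7, Ccne1 and Cdkn1c, described below. All of these genes were named for having the smallest p of their lists. Of all genes 2.9% had groups without overlap.

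Cohesin, condensin and separase genes had a median difference of -0.03 over 21 genes. Pttg1 (securin), the inhibitor of separase that the APC/C destroys, was at -0.19, and Pds5a, a cohesin regulator, at 0.11. APC/C subunits and regulators had a median of -0.01 over 15 genes, with Anapc10 at -0.23 and Cdc26 at -0.15. Of 19 genes of the E2F, pocket protein and MuvB families, which control the mitotic promoters, 14 lay below 0. Tfdp2, a dimer partner of E2F, was at -0.32 (SE 0.15), and E2f4, the E2F of the DREAM complex, at 0.14.

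DNA replication genes had a median difference of -0.03, with 21 of 37 below 0 and 0 called. Mcm7, a subunit of the replicative helicase, read 8.25, 8.31, 8.30 and 8.32 in cKO and 8.46, 8.49, 8.47 and 8.49 in controls. All 4 cKO arrays lay below all controls, and the difference was -0.18 (SE 0.08, limma adjusted p = 0.9996). Ccne1 (cyclin E1), which starts replication with Cdk2, was at 0.21. Among 13 cell cycle inhibitors and G1 cyclins, 0 were called. Cdkn1c (p57), an inhibitor associated with HSC quiescence, read 3.58 to 3.82 in cKO and 3.14 to 3.53 in controls, with 7 of 8 arrays above the level of absent transcripts. Its groups did not overlap (0.40, SE 0.11, limma adjusted p = 0.88), and Ccnd2 (cyclin D2) was at -0.19. The mean of the DNA replication genes was 7.38 on cKO 3 and 7.41 on control 1, against 7.42 to 7.51 on the other arrays. No difference between the mitosis genes and these other lists was tested.

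**Figure D4:**
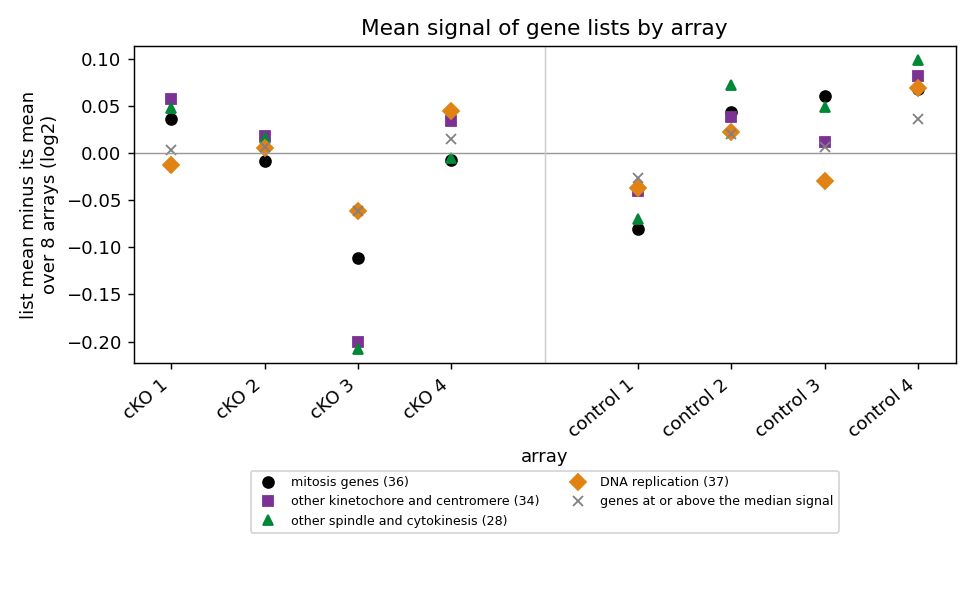
Mean log2 signal of 5 gene lists on each array, as the deviation from the list's mean over the 8 arrays (vertical axis), with cKO arrays left of control arrays. Mitosis genes (black circles), other kinetochore genes (squares), other spindle genes (triangles), DNA replication genes (diamonds) and genes at or above the median signal (crosses) are all below 0 on cKO 3 and on control 1 and above 0 on control 4.

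**Figure D5:**
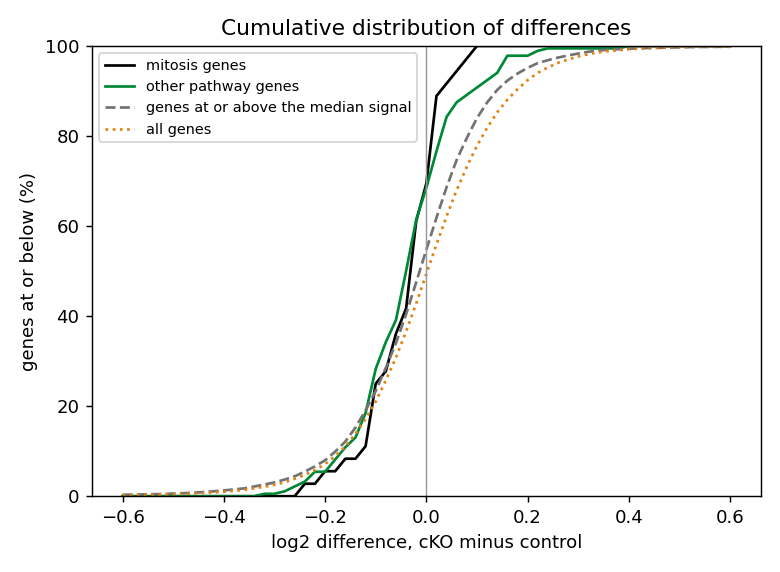
Cumulative percentage of genes (vertical axis) at or below a log2 difference of cKO minus control (horizontal axis) for the 36 mitosis genes, 184 other pathway genes, 12107 genes at or above the median signal, and all 24213 genes. The curve of the mitosis genes is steep and crosses 0 at 69.4%, where that of all genes crosses at 49.4%.

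Marker lists of other cells were also read, since a sorted sample can hold other cells. The early myeloid progenitor genes averaged 9.60 to 9.77 on the cKO arrays and 9.63 to 9.73 on the control arrays, with cKO 3 the lowest, and 10 of 10 were above the level of absent transcripts. The 10 erythroid progenitor genes measured averaged 4.07 to 4.29 in cKO and 4.10 to 4.36 in controls, with 8 of 10 above that level. Single erythroid genes differed in both directions, between -0.81 and 0.74. Of these 10 genes 3 had an unadjusted limma p under 0.05, against 4.94% of all genes, and 0 were called. Megakaryocyte genes averaged 4.05 to 4.37 in cKO and 4.45 to 4.76 in controls (8 of 9 above the level), and mast cell and basophil genes 4.44 to 4.99 in cKO and 4.83 to 5.19 in controls (6 of 9). Mature granulocyte and macrophage genes averaged 4.92 to 5.21 in cKO and 5.03 to 5.44 in controls (8 of 13). B cell genes averaged 3.15 to 3.28 in cKO and 3.30 to 3.45 in controls (4 of 11). The array means of the megakaryocyte and B cell lists, both lower in cKO, did not overlap between the groups. Above the level of absent transcripts were 4 of 10 genes of T or NK cells and 4 of 10 of endothelium or stroma. These counts go by a gene's mean, by which 14697 of all 24213 genes were above that level. An unadjusted limma p under 0.05 was also reached by 3 of 9 mast cell and basophil genes and 2 of 9 megakaryocyte genes. So it was by 3 of 10 endothelial or stromal, 2 of 11 B cell and 2 of 13 mature granulocyte and macrophage genes. It was reached by 1 of 10 T or NK cell and 1 of 10 early myeloid genes, and 0 were called. Differences went down to -1.40 in the megakaryocyte list and -1.16 in the mast cell and basophil list. The part of these cells in the mitosis result was not tested.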

How the data were processed

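The deposited values were log2 signals, 1 per feature and array, for 28853 features. Per the submitters' processing notes the authors used RMA and limma (no version stated). For annotation and genome build: not given in the sources used here. Both deposited tables held the same values (largest difference 0). Features without a gene name (1494) were left out, and the feature of highest mean was kept per symbol, leaving 24213 genes.

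The genotypes were compared by limma 3.58.1 under R 4.3.3 (lmFit, eBayes) with no filter and no covariate. Benjamini-Hochberg adjustment ran over all genes, and genes were called at an adjusted p under 0.05. The script was tested on simulated data with the same number of arrays. Of 67 genes given a change of 0.5 log2 units 16 were called, and of 67 given a change of 1 log2 unit 65. In the same simulation 66 further genes were given a change of 2 log2 units, and 66 were called. Among genes given no change 7 were called. With so many changed genes the adjustment was more lenient than in these data, where 1 gene was called. The simulated shares can thus be higher than those for changes of the same size here. Shifts as small as those of the mitosis genes would thus mostly go uncalled. Precision is limited by the number of arrays, 4 per group. Same-numbered arrays did not deviate together (correlations -0.10, 0.12, 0.02 and 0.03), so the numbers were not treated as pairs.

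The 36 genes and the lists were chosen with earlier results of these data known, and no test over a list alone was made. Described with every array value were Mki67, Top2a, Ccnb1, Cdk1, Foxm1 and the 8 members of smallest p; of each other pathway list the 2 genes of smallest p were named. Of the symbols listed, 4 (Kifc1, Hbb-b1, Hba-a1 and Gp6) were not found. Pkmyt1, Mcm7, Cdkn1c, Kit and Ly6a were given by array or range after their values were seen. Sequences are from RefSeq (GRCm38.p6); 6 of the 36 genes had no match in the promoter table.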

Additional observations from a re-analysis of the deposited data

Results flagged for a closer look

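Within a group of 4 arrays, an array was singled out when its gap to the nearest other, divided by the range of the group, exceeded Dixon's 95% critical value. This was tested in 118 groups, where chance alone gives about 1 in 20, and 10 arrays were singled out. Control 1 was low for Tpx2 (6.86, others 7.05 to 7.08), Aspm (6.24, others 6.30 to 6.31), Flt3 (4.78, others 5.56 to 5.61) and the mean of the 36 mitosis genes (7.48, others 7.61 to 7.63). Control 4 was high for Kif11 (8.23, others 8.01 to 8.02) and Top2a (9.47, others 9.33 to 9.34). Control 2 was high for Aurka (7.51, others 7.39 to 7.41) and control 3 for Incenp (7.86, others 7.74 to 7.75). cKO 3 was low for Ube2c (8.23, others 8.29 to 8.30), and cKO 1 was high for Depdc1b (5.61, others 5.22 to 5.28).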

How the results depend on the processing

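No mitosis gene was called in any of 19 alternative fits, and the smallest adjusted p of any of the 36 genes in them was 0.559 (limma with Xist signal as a covariate). An unadjusted p under 0.05 was reached in at least 1 fit by 4 genes, Tpx2, Prc1, Nusap1 and Ube2c, all lower in cKO. The direction was the same in all fits for 15 of the 36 genes. The mean difference of the 36 genes lay between -0.08 and -0.02 with 1 array left out, and was -0.09 with Xist and -0.06 with Y-linked signal as a covariate. With the replicate number as a block it was -0.05 and 0 mitosis genes were called; no other call changed there except that of Atg12. The Atg12 call, the only one over all genes, was lost (0 genes called) with the replicate block (log2 difference -0.93, adjusted p 0.227), with arrays centred on their median (-0.94), with a covariate for Y-linked signal (-0.94) or Xist (-0.97), and with cKO 3 and 4 left out together (-0.88, added after seeing the data). With 1 array left out Atg12 lay between -0.98 and -0.88 (adjusted p 0.0542 to 0.226), and 0 to 3 genes were called. Fits without an array hold fewer samples; otherwise the cause was not tested. All 36 mitosis genes lay above the level of absent transcripts, and 4 arrays per group limit the precision of their differences.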
